A study of Mus musculus with 9 samples.

Results

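The methionine cycle and choline metabolism of the mouse liver were followed here through 9 genes, Mat1a, Gnmt, Bhmt, Ahcy, Pemt, Cbs, Cth, Nnmt and Shmt1, chosen by name for their place in the pathway, with earlier results of these data known. They were looked up by Entrez Gene identifier among the 17846 genes measured. All 9 were found, and all 9 had enough counts to be tested. Liver RNA came from wild-type male mice of the strain given as C57/BL, with 1 sequencing library for each of 9 mice. Control mice (3) ate normal chow and stayed sedentary. NASH mice (3) stayed sedentary on the Ath diet, an atherogenic diet with added cholesterol and cholate that was used as the model of non-alcoholic steatohepatitis. NASH+Exercise mice (3) had the same Ath diet and ran on a treadmill for 8 weeks. Both of these groups had the Ath diet for 20 weeks. Training or continued sedentary keeping began after 12 weeks of Ath diet or chow, when the mice of all groups were 20 weeks old. The 3 mice of each group were a subset of the 8 mice per group that the study describes, and livers were taken after an overnight fast. All groups were of the same strain and sex, no exercised group on chow was among the samples, and the diet could therefore be compared with chow only in sedentary mice.

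In the methionine cycle, methionine is converted to S-adenosylmethionine, the donor of nearly all methyl groups in the cell. After the methyl group is passed on, S-adenosylhomocysteine remains, which is split into adenosine and homocysteine. Homocysteine is either methylated back to methionine, with betaine made from choline or with a folate as the donor, or drained into cysteine through transsulfuration. The liver is the main site of this cycle, where it also makes phosphatidylcholine, the phospholipid needed to export lipoproteins, by methylating phosphatidylethanolamine.

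Total estimated counts were 20085976 to 22495408 per mouse. Levels are given as CPM, counts scaled to the library size after TMM normalization (which balances the libraries on the premise that most genes do not differ), when 1 gene is compared between mice. They are given as TPM, which also corrects for transcript length, when genes are compared with each other. Changes were tested with the quasi-likelihood test of edgeR, p-values were adjusted by the Benjamini-Hochberg method over the 13619 genes tested, and fold changes are given with their standard error (SE). A gene passed at an adjusted p under 0.05, and was a DEG if its absolute log2 fold change was also above 1. The TMM factors of Control mice lay between 0.80 and 0.976, those of NASH mice between 1.09 and 1.23 and those of NASH+Exercise mice between 0.912 and 1.08, so the scaling moves every fold change between Control and NASH. Without these factors the median over all genes of the log2 fold change in NASH against Control moved from 0.013 to 0.36, and in NASH+Exercise against NASH from -0.033 to -0.23. With TMM, 2886 genes were higher and 1960 lower in NASH than in Control, and with library size alone 4489 were higher and 633 lower. Markers of liver cell types also moved with the groups. The summed TPM of 9 hepatocyte markers overlapped between all groups (Control 111492 to 120810, NASH 106197 to 129190, NASH+Exercise 92690 to 115863). Most of this sum in Control was Alb (mean 67855 TPM). With TMM, 3 of the 9 passed as lower in NASH and 0 as higher, with a median log2 fold change of -0.45 (14.4% of all genes passed as lower). The summed TPM of 9 macrophage markers spanned 72.9 to 149.9 in Control mice, 1155 to 1547 with NASH and 745 to 967 with NASH+Exercise. In bulk liver RNA, fewer cells of a type and less RNA per cell cannot be told apart.

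RefSeq promoters (GRCm38.p6, from 250 bases before to 50 bases after the start) were at hand for 6 of the 9 genes. Motifs were searched on both strands, and the share of all 32851 promoters with at least 1 match was 16.3% for the nuclear receptor motif AGGTCA, 7.15% for the E-box CACGTG, 37.4% for CCAAT, 13.6% for the TATA box TATAAA and 35.7% for the GC box GGGCGG. Bhmt was among the genes with the lowest fold changes in NASH, Gnmt was lower in NASH as well and stood above Mat1a in exercised mice per transcript length, and Pemt was the gene that did not pass in NASH. Their promoters are shown for comparison, 5′ to 3′ on the minus strand that carries each gene, with AGGTCA or its reverse complement in capitals.
Bhmt promoter, chr13:93637709-93638008: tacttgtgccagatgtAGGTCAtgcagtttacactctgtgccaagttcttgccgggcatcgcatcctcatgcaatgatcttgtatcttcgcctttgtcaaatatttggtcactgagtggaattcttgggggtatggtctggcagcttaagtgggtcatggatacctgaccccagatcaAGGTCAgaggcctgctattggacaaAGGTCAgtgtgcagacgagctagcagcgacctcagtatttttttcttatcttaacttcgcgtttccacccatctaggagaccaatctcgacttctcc
Gnmt promoter, chr17:46729116-46729415: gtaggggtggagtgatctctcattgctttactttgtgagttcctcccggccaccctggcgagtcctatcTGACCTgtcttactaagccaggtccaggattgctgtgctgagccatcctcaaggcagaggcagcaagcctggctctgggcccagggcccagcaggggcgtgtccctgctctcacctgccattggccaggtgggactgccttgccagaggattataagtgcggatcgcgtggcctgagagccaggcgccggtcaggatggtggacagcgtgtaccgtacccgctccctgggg
Pemt promoter, chr11:60040139-60040438: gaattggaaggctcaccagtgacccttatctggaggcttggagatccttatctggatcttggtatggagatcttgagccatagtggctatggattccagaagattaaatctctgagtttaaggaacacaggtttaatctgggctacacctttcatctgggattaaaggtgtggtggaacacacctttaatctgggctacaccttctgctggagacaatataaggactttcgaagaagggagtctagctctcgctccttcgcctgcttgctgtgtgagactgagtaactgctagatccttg
Bhmt had 3 matches, and 0.183% of all promoters had 3 or more. Gnmt had 1 and this Pemt promoter had 0, as did the other Pemt start in the table. Both Pemt promoters lie inside the span given for the gene (chr11:59970614-60046561), and none at its outer end was at hand. Of the promoters not shown, Ahcy had 1 match, and Cbs and Shmt1 had 0. Cbs had the E-box, with 1 match, and Shmt1 had 4 GC boxes. TATAAA was found in 0 of the members' promoters. A match describes letters only, and binding was not measured.

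Mat1a (Entrez Gene 11720, chr14:41105012-41124428) encodes the methionine adenosyltransferase of adult hepatocytes, which makes S-adenosylmethionine. In Control mice 3, 4 and 29 its level was 4801, 6749 and 5677 CPM. In NASH mice 5, 19 and 20 it was 2005, 2006 and 2614 CPM, and in NASH+Exercise mice 8, 18 and 22 it was 1529, 1471 and 1721 CPM. Every NASH mouse was below every Control mouse, and every NASH+Exercise mouse was below every NASH mouse. Mat1a fell in NASH to 38.5% of Control (log2 fold change -1.38, SE 0.19, edgeR adjusted p = 0.000275). The value for NASH+Exercise against NASH was -0.49 (SE 0.18, unadjusted p = 0.0226, edgeR adjusted p = 0.256), which did not pass. Against Control, NASH+Exercise mice were at -1.87 (SE 0.19, edgeR adjusted p = 8.21e-05). In limma on log2(TPM + 1) the difference between NASH+Exercise and NASH was -0.78 and passed (adjusted p = 0.0326, limma), and the range of adjusted p over the alternatives other than leaving out a mouse was 0.0326 to 0.349.

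Gnmt (14711, chr17:46725664-46729211) encodes glycine N-methyltransferase, an abundant liver enzyme that uses up S-adenosylmethionine by methylating glycine to sarcosine. Its level was 1430.5, 2122 and 1346 CPM in Control, 606, 506 and 572 CPM in NASH, and 634, 604 and 778 CPM in NASH+Exercise. The mice on the Ath diet were all below the Control mice, and the sedentary and exercised mice overlapped. Gnmt fell in NASH (log2 fold change -1.54, SE 0.20, edgeR adjusted p = 0.00021) and was also lower in NASH+Exercise than in Control (-1.28, SE 0.20, edgeR adjusted p = 0.000971). NASH+Exercise against NASH gave 0.26 (SE 0.20, edgeR adjusted p = 0.557), and -0.046 on the TPM scale.

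Pemt (18618, chr11:59970614-60046561) encodes phosphatidylethanolamine N-methyltransferase, which makes phosphatidylcholine with methyl groups of S-adenosylmethionine. Control mice had 268, 335 and 226 CPM, NASH mice 214, 191 and 214 CPM, and NASH+Exercise mice 191, 241 and 283 CPM. The NASH mice lay just below the lowest Control mouse, while NASH+Exercise mice overlapped with both groups. Pemt was the only member that did not pass in NASH (log2 fold change -0.42, SE 0.18, edgeR adjusted p = 0.0927), although it passed without Control replicate 29 (-0.59, edgeR adjusted p = 0.0373). Its direction rested on the scaling, since in TPM the values were 412, 438 and 389 in Control and 424, 420 and 412 in NASH, a difference of 0.020 in log2(TPM + 1). The log2 fold change of NASH+Exercise against NASH was 0.21 (edgeR adjusted p = 0.627), and it was -0.0079 with library size alone. Against Control it was -0.21 (edgeR adjusted p = 0.432).

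Nnmt (18113, chr9:48538002-48607655) encodes nicotinamide N-methyltransferase, which spends S-adenosylmethionine on methylating nicotinamide. It was at 131, 172 and 110 CPM in Control, at 21.1, 56.1 and 35.1 CPM in NASH, and at 59.97, 77.0 and 108.6 CPM in NASH+Exercise. The 3 groups did not overlap in CPM, with the exercised mice between the others. Nnmt fell in NASH (log2 fold change -1.88, SE 0.35, edgeR adjusted p = 0.00262). NASH+Exercise against NASH gave the largest difference in either direction among the 9 genes in that comparison, 1.13 (SE 0.34, unadjusted p = 0.00879, edgeR adjusted p = 0.194), which did not pass. DESeq2 called it with 6 mice (1.18, adjusted p = 0.00881, DESeq2's Wald test) and with 9 mice (1.15, adjusted p = 0.0303, DESeq2's Wald test), and over the alternatives other than leaving out a mouse the adjusted p ranged from 0.00881 to 0.265. On the TPM scale NASH replicate 19, at 123, lay above NASH+Exercise replicate 8, at 112, so the groups overlapped there. Against Control the log2 fold change in NASH+Exercise was -0.75 (edgeR adjusted p = 0.143), without overlap.

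**Figure D1:**
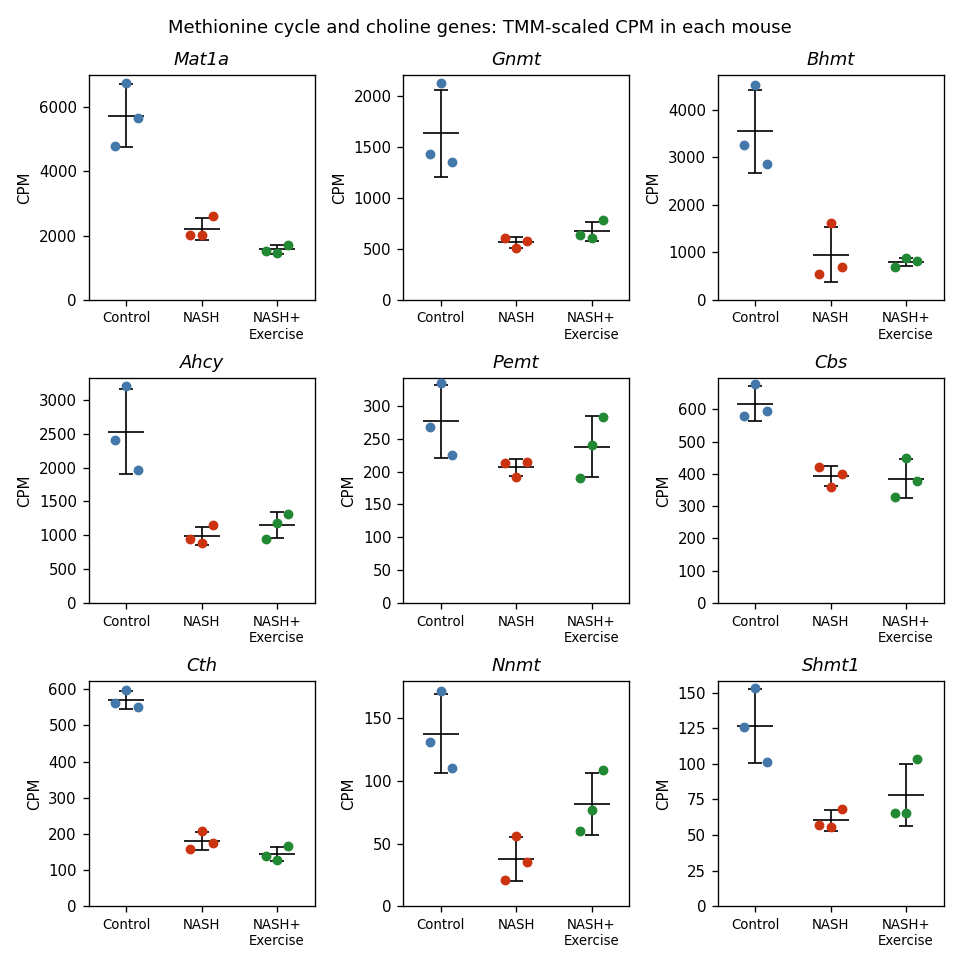
Level of each of the 9 genes in each of the 9 mice, as TMM-scaled CPM (vertical axes, linear from 0) by group. Points are mice, the horizontal line is the mean and the bars are ± 1 SD (n = 3). All 9 genes have their NASH points below their Control points, and for Bhmt a single NASH mouse stands at 1612 CPM above the other two.

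Ahcy (269378, chr2:155059310-155074497) encodes adenosylhomocysteinase, which removes S-adenosylhomocysteine, an inhibitor of methyltransferases. Levels were 2414, 3207 and 1964 CPM in Control, 939, 882 and 1147 CPM in NASH, and 949, 1182 and 1320 CPM in NASH+Exercise. Both diet groups lay below Control and overlapped each other. Ahcy fell in NASH (log2 fold change -1.35, SE 0.21, edgeR adjusted p = 0.000742) and was lower in NASH+Exercise than in Control (-1.14, SE 0.21, edgeR adjusted p = 0.00297). Its value in NASH+Exercise against NASH was 0.22 (edgeR adjusted p = 0.668), and -0.088 on the TPM scale. The Ahcy values are uncertain, because 74.1% of the 50-base windows of its transcript Ahcy-201 (GENCODE) also occur in that of Gm4737, and its counts were not whole numbers in any mouse. Gm4737 held 35.8 to 43.3% of the TPM assigned to both genes. With the counts of both genes summed, the log2 fold change in NASH was -1.46 (edgeR adjusted p = 0.00053).

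Bhmt (12116, chr13:93616891-93637758) encodes betaine-homocysteine S-methyltransferase, which links choline to the cycle by returning a betaine methyl group to homocysteine. Its level in Control was 3265, 4534 and 2853 CPM. In NASH it was 540, 1612 and 691 CPM, so that replicate 19 stood apart from the other NASH mice while remaining below all Control mice. In NASH+Exercise it was 702, 882 and 809 CPM. Bhmt fell in NASH (log2 fold change -1.91, SE 0.37, edgeR adjusted p = 0.00319), and by 2.57 on the log2 scale without NASH replicate 19. It was also lower in NASH+Exercise than in Control (-2.15, SE 0.38, edgeR adjusted p = 0.00239). The difference between NASH+Exercise and NASH was -0.25 (edgeR adjusted p = 0.797) and turned to 0.40 without NASH replicate 19 (edgeR adjusted p = 0.627). Of 50-base windows of Bhmt-201, 0.41% were shared with Bhmt2, its neighbour in sequence. The counts of Bhmt, like those of Ahcy, were not whole numbers in any mouse, and overlap with transcripts other than Bhmt2 was not examined. Counts were also not whole in 77.8% of mice for Pemt and in 22.2% for Shmt1.

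Homocysteine leaves the cycle through cystathionine beta-synthase, encoded by Cbs (12411, chr17:31612623-31637233), and cystathionine is then split to cysteine by cystathionine gamma-lyase, encoded by Cth (107869, chr3:157894248-157925081). Cth stood at 563, 598 and 551 CPM in Control, at 157, 208 and 176 CPM in NASH, and at 138, 128 and 167 CPM in NASH+Exercise. Both diet groups lay far below Control and overlapped each other. Cth fell in NASH (log2 fold change -1.66, SE 0.15, edgeR adjusted p = 2.51e-05), with the lowest adjusted p among the 9 genes, and was also lower in NASH+Exercise than in Control (-1.99, SE 0.15, edgeR adjusted p = 1.89e-05). Against NASH it was at -0.32 (unadjusted p = 0.0536, edgeR adjusted p = 0.335). Cbs stood at 578, 679 and 596 CPM in Control, at 422, 359 and 400 CPM in NASH, and at 330, 450 and 377 CPM in NASH+Exercise. The diet groups overlapped each other and lay below Control. Cbs fell in NASH (log2 fold change -0.65, SE 0.15, edgeR adjusted p = 0.00716), a call that was lost with library size alone (-0.30, edgeR adjusted p = 0.0609), with scaling to hepatocyte markers (-0.32, edgeR adjusted p = 0.0847) and on the TPM scale (-0.21, adjusted p = 0.15, limma). It was lower in NASH+Exercise than in Control (-0.68, SE 0.15, edgeR adjusted p = 0.00764), and -0.030 apart between NASH+Exercise and NASH (edgeR adjusted p = 0.948).

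Shmt1 (20425, chr11:60788897-60811265) encodes the cytosolic serine hydroxymethyltransferase, which moves a carbon unit from serine to folate. It had 126, 153 and 101 CPM in Control, 56.8, 55.5 and 68.5 CPM in NASH, and 65.5, 65.7 and 103.2 CPM in NASH+Exercise. NASH mice lay below Control, while NASH+Exercise replicate 22 lay within Control. Shmt1 fell in NASH (log2 fold change -1.07, SE 0.21, edgeR adjusted p = 0.00266). In NASH+Exercise it was lower than in Control by the test (-0.70, SE 0.21, edgeR adjusted p = 0.0315), but not when only these 6 mice were fitted (-0.66, edgeR adjusted p = 0.0672) or without Control replicate 3, Control replicate 4, NASH+Exercise replicate 8 or NASH+Exercise replicate 18 (edgeR adjusted p = 0.0762, 0.106, 0.114 and 0.111). NASH+Exercise mice were at 0.37 against NASH (edgeR adjusted p = 0.417).

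**Figure D2:**
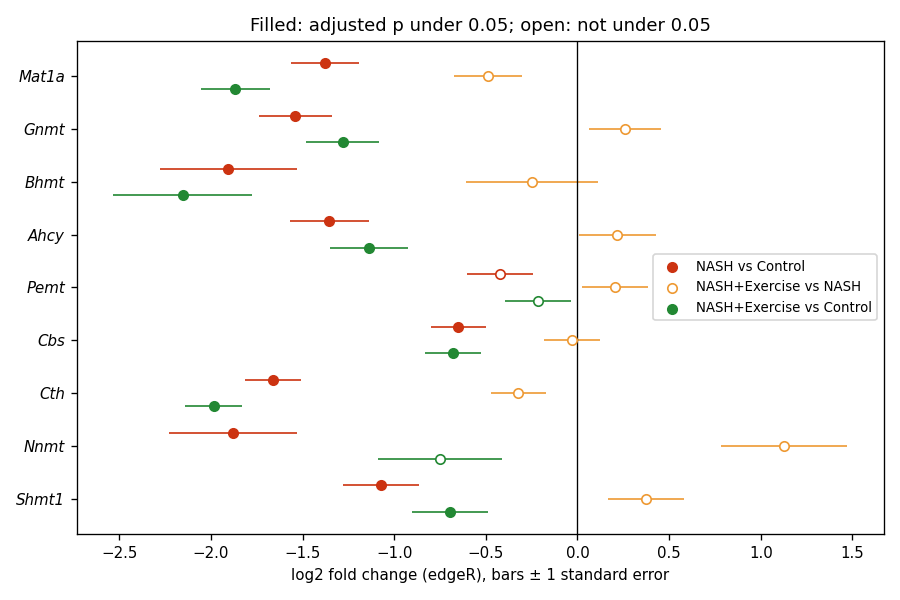
Log2 fold change (horizontal axis) of the 9 genes in the 3 comparisons, with bars of ± 1 SE from edgeR and filled points where the adjusted p was under 0.05. Both comparisons with Control lie left of 0 for all 9 genes, from -0.42 to -1.91 in NASH and from -0.21 to -2.15 in NASH+Exercise, and all points of NASH+Exercise against NASH are open.

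In NASH against Control, 8 of the 9 genes passed as lower, where 14.4% of all genes tested did. As DEGs, 7 were lower (3.03% of all genes), namely all but Pemt and Cbs, and groups did not overlap, with NASH lower, in 9 of 9 (22.2% of all genes). The number of DEGs was 4 in limma on the TPM scale (1.12% of all genes were lower DEGs there), where Mat1a (-0.94), Ahcy (-0.90) and Shmt1 (-0.60) passed without reaching a log2 fold change of 1 in size. The median log2 fold change of the 9 genes was -1.38, against 0.013 over all genes. Taken relative to the median of all genes, the median of the members was -1.39 with TMM, -1.38 with library size alone or with scaling to hepatocyte markers, -1.40 with RLE factors and -1.28 in log2(TPM + 1). An exact permutation test of any single gene cannot go below a two-sided p of 0.1 with 3 mice against 3.

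Whether training moved these genes in mice on the diet is the question of NASH+Exercise against NASH. None of the 9 genes passed in edgeR, and 0.162% of all genes did. At an unadjusted p under 0.05 there were 2 of 9, Mat1a and Nnmt, where 15.3% of all genes tested had such a p. DESeq2 called 1 of the 9 (Nnmt), where it called 3.87% of all genes tested with 6 mice and 2.26% with 9 mice. limma on log2(TPM + 1) called 1 (Mat1a) and 2.24% of all genes, and limma-voom called 0 and 0.162% of all genes. Groups did not overlap for Nnmt, which was higher in NASH+Exercise (9.16% of all genes), and for Mat1a, which was lower (14.9% of all genes). Differences were positive for 5 genes and negative for 4, with a median of 0.21 against -0.033 over all genes. With library size alone the median of the 9 was -0.0079 and that of all genes -0.23. In TPM, which carries no TMM factor, 3 genes had NASH+Exercise mice below all NASH mice, which were Mat1a (742 ± 64.3 against 1275 ± 158, mean ± SD, n = 3), Cbs (249 ± 35.3 against 313 ± 13.5) and Cth (130 ± 14.3 against 202 ± 41.9), and the other 6 overlapped. Over all genes tested, 37.6% had such a separation in TPM with NASH+Exercise lower and 1.26% with NASH+Exercise higher, so 3 of 9 is not above the background. The sign for Gnmt, Ahcy, Pemt, Cbs and Bhmt in this comparison was not the same under all settings.

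**Figure D3:**
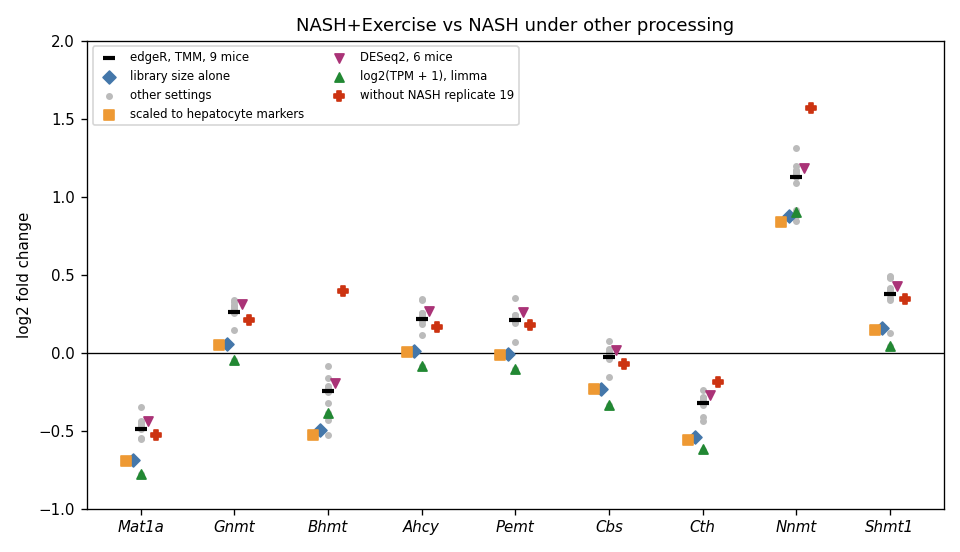
Log2 fold change of NASH+Exercise against NASH (vertical axis) for each of the 9 genes under the settings tried, with the black bar for edgeR on all 9 mice with TMM. Mat1a and Cth stay below 0 and Nnmt and Shmt1 above 0 in every setting drawn, while Bhmt moves from -0.25 to 0.40 without NASH replicate 19 and the TPM scale (triangles) sits below the bar for every gene.

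In NASH+Exercise against Control, 7 of the 9 genes passed as lower (9.58% of all genes), 5 of them as DEGs (3.07% of all genes), and 7 had groups without overlap, with NASH+Exercise lower (17% of all genes). Pemt and Nnmt did not pass. The comparisons share the Control or the NASH mice with each other, so their values are not independent.

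Per transcript length, the 9 genes summed to 10267 ± 811 TPM in Control (mean ± SD, n = 3), 5157 ± 697 TPM in NASH and 4124 ± 78.9 TPM in NASH+Exercise, or 1.03, 0.516 and 0.412% of all TPM. In Control, Bhmt, Mat1a and Gnmt were the most abundant, with means of 2489, 2455 and 2341 TPM and overlapping mice, followed by Ahcy at 1437 TPM without overlap. Cth at 470 TPM, Pemt at 413 TPM and Cbs at 364 TPM each overlapped with the next, and Nnmt at 207 TPM and Shmt1 at 90.8 TPM each stood apart. In NASH the order was Mat1a, Gnmt, Bhmt and Ahcy from 1275 to 770 TPM, each overlapping with the next, and below them Pemt (418 TPM), Cbs (313 TPM) and Cth (202 TPM), each without overlap. Nnmt (77.8 TPM) and Shmt1 (59.4 TPM) overlapped. Pemt and Cbs thus stood above Cth in NASH mice, whereas Cth had the higher mean in Control. In NASH+Exercise, Gnmt (1071 TPM) stood above Mat1a (742 TPM) without overlap, which held in neither of the other groups.

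Ratios between members within a mouse do not depend on how libraries are scaled, and the pairs described were chosen after their values were seen, so no test is given. The ratio of Mat1a to Gnmt in TPM was 0.988, 0.937 and 1.24 in Control, 0.967, 1.17 and 1.35 in NASH, and 0.712, 0.719 and 0.65 in NASH+Exercise. Control and NASH mice overlapped in this ratio, and every exercised mouse was below them. Pemt to Nnmt was 2.05, 1.94 and 2.01 in Control, 10.3, 3.40 and 6.02 in NASH, and 3.19, 3.07 and 2.58 in NASH+Exercise, so that the exercised mice lay between the other groups. Of the 36 pairs of members, 19 had ratios without overlap between NASH and Control, 15 between NASH+Exercise and NASH and 28 between NASH+Exercise and Control. The share of such ratios among pairs of other genes was not computed, so these counts have no background to be read against. Each member enters 8 pairs, so the pairs are not independent. Pemt belonged to 8 of the 19, its ratio to every other member being higher in NASH, and Mat1a belonged to 6 of the 15, its ratio to Gnmt, Ahcy, Pemt, Cbs, Nnmt and Shmt1 being lower in NASH+Exercise.

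**Figure D4:**
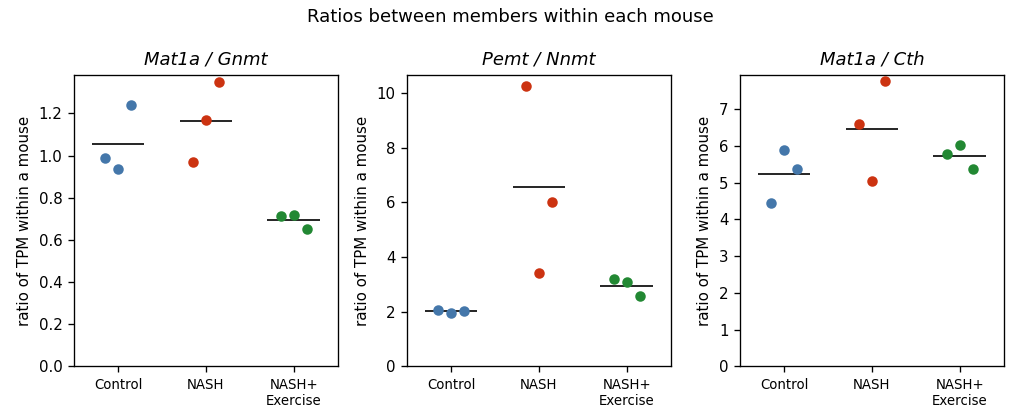
Ratio of TPM between pairs of members within each mouse (vertical axes, linear from 0) by group, with points for mice and a line for the mean (n = 3). The ratio of Mat1a to Gnmt is 0.65 to 0.719 in NASH+Exercise and at least 0.937 in the other mice, Pemt to Nnmt is higher in NASH than in Control in every mouse, and Mat1a to Cth overlaps between the groups.

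Beyond the members, 114 further genes of the pathways around the cycle were listed, of which 111 were tested. In NASH against Control, 12 passed as higher, 38 as lower and 61 did not pass, with a median log2 fold change of -0.30. Of all genes tested, 21.2% passed as higher and 14.4% as lower. These counts depended on the scaling. With library size alone 25 were higher and 19 lower, with a median of 0.052 (33% and 4.65% of all genes were higher and lower there). In log2(TPM + 1) 33 were higher and 15 lower, with a median of 0.13 (37% and 3.85% of all genes were higher and lower there). Relative to the median of all genes, however, the medians under the scalings tried lay between -0.32 and -0.21. The medians of 2 of the 10 lists, choline oxidation and cysteine metabolism, stayed below 0 under all 5 scalings tried, and those of the other 8 changed sign under at least 1. Under all 5 scalings, 12 of the 111 genes passed as higher and 15 as lower. The share of all genes that did so was not computed. It cannot exceed 21.2% for higher (the share with TMM) and 3.85% for lower (the share in log2(TPM + 1)). The fold changes that follow are with TMM.

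Choline oxidation, which makes betaine and carries its remaining methyl groups to glycine, was lower in 5 of 5 genes (14.4% of all genes). With library size alone it was lower in 3 of 5 (4.65% of all genes). Dmgdh (dimethylglycine dehydrogenase) had a log2 fold change of -1.55 and Sardh (sarcosine dehydrogenase, which also takes up the product of Gnmt) one of -1.07. Aldh7a1, which makes betaine from its aldehyde, was at -0.79, Chdh (choline dehydrogenase) at -0.66 and Pipox at -0.54. Chdh and Pipox did not pass under all scalings. In NASH+Exercise against Control, 2 of the 5 passed as lower (9.58% of all genes), Dmgdh (-1.27) and Chdh (-0.86).

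Among 11 genes of choline uptake and the CDP-choline route to phosphatidylcholine, 1 was higher and 5 were lower in NASH (21.2% and 14.4% of all genes). Slc44a2, a choline transporter-like protein, rose by 1.58 on the log2 scale with TMM. In TPM, which carries no TMM factor, Slc44a2 stood at 2.66 ± 1.05 in Control and 10.5 ± 1.69 in NASH (SD, n = 3). Chpt1 (cholinephosphotransferase) fell by 1.35, Gpcpd1, which splits glycerophosphocholine, by 1.28, and Chkb (a choline kinase) by 1.04 on the log2 scale. Pcyt1a, which catalyses the pacing step of the route, was at -0.40, which turned to 0.034 in log2(TPM + 1). The calls of Gpcpd1 (-0.74) and Chkb (-0.59) were lost in log2(TPM + 1), while those of Slc44a2 and Chpt1 held under all 5 scalings. Of 8 genes listed around the supply of phosphatidylethanolamine, 3 were lower (14.4% of all genes). They were Pcyt2 (-0.69), Selenoi (-0.69) and Etnppl (ethanolamine-phosphate phospho-lyase, -2.17), which breaks down a precursor rather than supplying it. Etnppl passed under all 5 scalings, whereas Pcyt2 (-0.25) and Selenoi (-0.23) did not pass in log2(TPM + 1). In NASH+Exercise against Control, Slc44a2 was at 1.14, Chkb at -1.32, Chpt1 at -1.03, Etnppl at -2.89 and Selenoi at -0.75.

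Of 9 other genes of the methionine cycle, 1 was higher and 3 were lower (21.2% and 14.4% of all genes). Mtr (methionine synthase) rose by 0.58 on the log2 scale with TMM, at a low level. In TPM, which carries no TMM factor, Mtr stood at 1.23 ± 0.398 in Control and 2.39 ± 0.0737 in NASH (SD, n = 3). Among the lower genes, Bhmt2 was at -0.70 and Ahcyl1 at -0.46, and neither passed under library size alone. Mat2a, the methionine adenosyltransferase that predominates outside the liver, was at -0.25 with TMM and 0.086 with library size alone, and did not pass in either. NASH+Exercise mice had Bhmt2 at -0.66 and Ahcyl2 at 0.52 against Control.

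Downstream of transsulfuration, 6 of 11 genes of cysteine, taurine and glutathione metabolism were lower and 0 higher (14.4% and 21.2% of all genes). Csad (cysteine sulfinic acid decarboxylase, for taurine synthesis) fell by 2.31 on the log2 scale with TMM. In TPM, which carries no TMM factor, Csad stood at 221 ± 67.9 in Control and 59.6 ± 7.41 in NASH (SD, n = 3). Got1 was at -1.41, Suox (sulfite oxidase) at -1.40, Mpst at -1.06, Tst at -0.90 and Ethe1 at -0.71. Ethe1 did not pass with library size alone (-0.35), and the other 5 passed under all 5 scalings. The glutathione synthesis genes Gclc, Gclm and Gss were at -0.40, -0.14 and -0.028 and did not pass, and Gss passed as higher with library size alone (0.33, edgeR adjusted p = 0.0295). In NASH+Exercise against Control, Csad was at -2.51 and Got1 at -1.35.

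Of 18 folate genes, 3 were higher and 4 lower (21.2% and 14.4% of all genes). With library size alone 4 were higher and 1 lower, where the shares over all genes were 33% and 4.65%. Mthfd1l (1.91), Mthfd2 (1.68) and Aldh1l2 (1.39), enzymes of the mitochondrial folate branch, rose from levels under 1 TPM in Control. Fpgs (folylpolyglutamate synthase) was at -1.22, Shmt2 at -0.69, Mthfd1 at -0.65 and Ftcd at -0.37, which turned to 0.066 in log2(TPM + 1). Shmt2 (-0.32) and Mthfd1 (-0.28) did not pass with library size alone, and Fpgs and the 3 higher genes passed under all 5 scalings. Of 10 serine and glycine genes, 2 were higher (21.2% of all genes), Psat1 (1.97) and Phgdh (1.86) of serine synthesis, also from under 1 TPM. The other 4 that passed were lower (14.4% of all genes), namely Sdsl (-0.88), Gldc (-0.81), Gcsh (-0.54) and Amt (-0.50), the last 3 of the glycine cleavage system. None of these 3 passed with library size alone, where Gldc was at -0.45, Gcsh at -0.18 and Amt at -0.13, and Dld, which also serves that system, was at -0.42 with TMM and did not pass. Against Control, NASH+Exercise mice had Mthfd2 at 1.28, Mthfd1l at 1.27, Psat1 at 1.39, Fpgs at -1.22, Ftcd at -0.38, Gldc at -1.17 and Sdsl at -0.94.

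Other methyltransferases that use S-adenosylmethionine, most but not all of them for small molecules, formed another list. Of all genes tested, 21.2% passed as higher in NASH and 14.4% as lower. Of 13 listed, 1 was higher (Hnmt, for histamine, 1.16) and 4 were lower (Mettl7b at -1.06, Coq3 at -0.88, As3mt at -0.61 and Coq5 at -0.58). Of these, Hnmt and Mettl7b passed under all 5 scalings, and Coq3 (-0.40), As3mt (-0.11) and Coq5 (-0.12) did not pass in log2(TPM + 1). Of 14 polyamine and salvage genes, Sat1 (1.196) and Smox (0.99), which act in polyamine catabolism, were higher, and Odc1 (ornithine decarboxylase, -0.84) and Oaz1 (-0.74), its antizyme, were lower. Of 12 genes of nicotinamide and NAD metabolism, which supplies the substrate of Nnmt, Cd38 (1.38) and Nampt (0.78) were higher, and Aox1 (-0.71) and Nadk (-0.56) were lower, calls that both ended with library size alone (-0.37 and -0.21). In the polyamine and NAD lists the counts called lay near or below the shares over all genes. NASH+Exercise mice had Hnmt at 1.36, Inmt at 1.202, As3mt at -0.92, Coq3 at -0.85, Sat1 at 1.02, Amd1 at 0.70, Oaz1 at -0.66, Cd38 at 0.97, Aox1 at -0.82 and Nadk at -0.50 against Control.

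**Figure D5:**
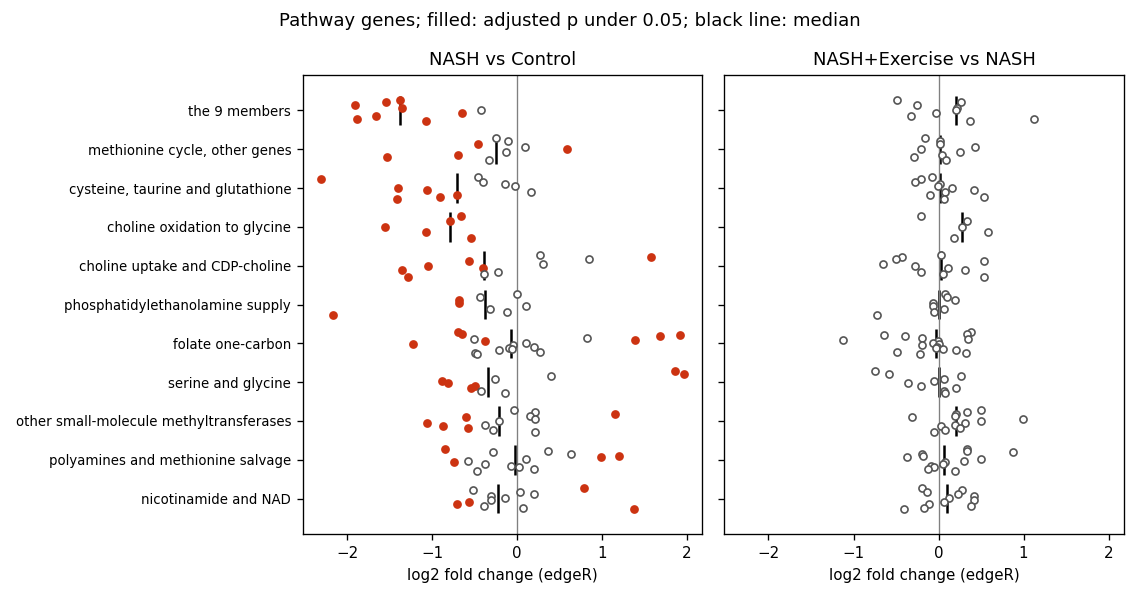
Log2 fold change (horizontal axes, edgeR with TMM) of the members and of each pathway list, for NASH against Control (left) and NASH+Exercise against NASH (right), with filled points at an adjusted p under 0.05 and a black line for the median. The members have a median of -1.38 in NASH, choline oxidation one of -0.79, folate genes spread from -1.22 to 1.91, and no point is filled on the right.

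Between NASH+Exercise and NASH, 0 of the 111 pathway genes passed in edgeR and 17 had an unadjusted p under 0.05, as did 15.3% of all genes. limma-voom called 0, and DESeq2 called 5 as higher with the 6 mice of the comparison (among them Sardh, Inmt, Mettl7a1 and Srm) and 2 with all 9 mice (Inmt and Srm), where 1.72% and 0.812% of all genes tested were called as higher. The log2 fold changes in edgeR were 0.99 for Inmt (edgeR adjusted p = 0.177), an N-methyltransferase of indoles, and 0.88 for Srm (spermidine synthase, edgeR adjusted p = 0.157). limma on log2(TPM + 1) called 1 as lower (As3mt), and 2% of all genes. Against Control, 11 pathway genes were higher and 28 lower in NASH+Exercise, beside 15.6% and 9.58% of all genes.

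Summed over the markers of each hepatocyte zone, TPM was lower in NASH than in Control, as it was for the members. In both zones the sums of NASH and NASH+Exercise mice overlapped. With TMM, 6 of 7 pericentral and 4 of 6 periportal markers passed as lower in NASH (14.4% of all genes). The summed TPM of 7 pericentral markers spanned 11739 to 14099 in Control mice, 6922 to 8672 with NASH and 8336 to 9128 with NASH+Exercise. Most of this sum in Control was Cyp2e1 (mean 10279 TPM). Mean TPM was higher in NASH than in Control for pericentral Rgn (706 against 470) and periportal Hsd17b13 (805 against 629), and lower for the other markers of both zones. The summed TPM of 6 periportal markers was 7774 to 9017, 5629 to 6728 and 4627 to 6498 in Control, NASH and NASH+Exercise mice. For 10 stellate cell and fibroblast markers the sum was 75.6 to 193, 260 to 442 and 161 to 240 in the same groups. For 6 cholangiocyte markers it was 28.2 to 39.5, 134 to 571 and 68.7 to 126, and for 6 neutrophil markers 5.14 to 9.39, 87.8 to 112 and 47.8 to 86.5. The 7 T and NK cell markers summed to 2.65 to 5.89, 27.1 to 32.5 and 11.3 to 18.2 TPM. Ranges for 6 sinusoidal endothelial markers were 45.1 to 93.7, 81.5 to 121 and 68.3 to 95.2 TPM, for 4 B cell markers 2.07 to 6.58, 5.79 to 9.06 and 1.76 to 5.05, for 3 erythroid markers 866 to 1158, 960 to 1705 and 925 to 1529, and for the 1 pancreas marker found 7.33 to 11.9, 4.83 to 6.13 and 5.11 to 10.4. None of these markers was at 0 in all mice, and their part in the results was not tested. With libraries scaled to the hepatocyte markers, 7 of the 9 members were still lower in NASH by the test, where 4.5% of all genes were lower and 28.1% higher.

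The genes whose log2 CPM profile over the 9 mice lay nearest to each member, by the root mean square difference after centring, are given as a description. Nearest to Gnmt was Suox (0.094) and then Gm4737 (0.096), to Ahcy Chchd10 (0.12) and Nrtn (0.12), and to Shmt1 Hagh (0.084) and Hpd (0.090). Among the genes near to Mat1a was Slc25a22 (0.18). Pemt was closest to Hpn (0.050) and Tpi1 (0.055), and Cbs to Ceacam1 (0.075) and Oaz1 (0.077). For Cth these were Lhpp (0.17) and Gpd1 (0.18), for Bhmt Slc22a3 (0.26) and Nptx1 (0.31), and for Nnmt Slc15a5 (0.23) and Fitm1 (0.31). Bhmt and Nnmt had the least close neighbours by this difference, which is not scaled to a gene's own spread. That spread was also largest for Bhmt (1.07) and Nnmt (0.91) among the members, and was 0.26 for Pemt. Suox and Oaz1 are also in the pathway lists used above, and Lhpp is in the list of pericentral markers.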

How the data were processed

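The authors deposited, per gene, an unnormalized expected count, an FPKM and a TPM value for every mouse. Per the labels' processing notes, HISAT2 2.1.0, Bowtie2 2.2.5, RSEM 1.2.8 and the build GRCm38.p6 were used. Deposited expected counts were rounded (29.0 to 32.8% of the values per mouse were not whole) and tested, deposited TPM values served to compare genes, and the deposited FPKM values gave no result reported here. NASH replicate 5's table repeats the values of the other mice, and 0 of 428304 differed. RefSeq (GRCm38.p6) gave symbols for 17728 identifiers.

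edgeR 4.0.16 in R 4.3.3 was used with filterByExpr (10 counts, total 15), TMM, a robust quasi-likelihood fit of all 9 mice without covariates beyond group (6 residual degrees of freedom, biological coefficient of variation 0.192) and Benjamini-Hochberg adjustment over 13619 genes. The thresholds were an adjusted p of 0.05 and an absolute log2 fold change of 1. The fits were tested on simulated data. Alternatives were other scalings, no filter, DESeq2 1.42.0, limma 3.58.1 (voom, and log2(TPM + 1) and log2(TPM + 0.1) with trend), the 6 mice of a comparison, and each mouse left out; summing Ahcy and Gm4737 was chosen after seeing the data. Profiles used log2 CPM with a prior count of 2. Tests across genes are two-sided. Named were all members, the 2 pathway genes per list, comparison and direction with the largest change among those that passed, all genes of counts of 5 or fewer, and the 2 nearest profiles. The remaining named genes (Mat2a, Gclc, Gclm, Gss, Dld, Alb, Gm4737, the other genes of lists with 6 called and those that only DESeq2 or limma called) were chosen after their values were seen. Some genes that this rule would name are not reported here, although the counts over lists include them. The members and lists were chosen with earlier results of these data known. Of the hepatocyte markers, Tf was not found under its symbol. Members had 507 to 121377 counts per mouse, so precision is set by the differences between 3 mice rather than by depth.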

Additional observations from a re-analysis of the deposited data

How the results depend on the processing

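The TMM factors differ between Control and NASH, so fold changes there depend on the scaling. In NASH against Control, the 4 DEGs of both TPM fits stand beside 7, and Pemt reversed to 0.020 there. In NASH+Exercise against NASH, 1 member was called by DESeq2 with 6 mice, by DESeq2 with 9 mice and in log2(TPM + 1), and 1 was a DEG in both DESeq2 fits. Signs reversed for Gnmt (-0.046) and Ahcy (-0.088) in both TPM fits, for Pemt with library size alone (-0.0079), hepatocyte scaling (-0.013) and both TPM fits (-0.10), for Cbs in DESeq2 (0.018) and edgeR (0.0028) with 6 mice, and for Bhmt without NASH replicate 19 (0.40). The cause was not tested. With each mouse left out in turn, Cbs ranged from -0.15 to 0.074 and Bhmt from -0.53 to 0.40 in that comparison. The members called were 8 to 9 in NASH against Control, 0 in NASH+Exercise against NASH and 6 to 7 in NASH+Exercise against Control, with 6 to 7, 0 and 4 to 5 DEGs. Calls also changed for Cbs in NASH, for Pemt without Control replicate 29, for Shmt1 in NASH+Exercise against Control, and for Nnmt there in DESeq2 with 6 mice (-0.78, adjusted p = 0.0209). No paired analysis was possible because the groups share no replicate numbers.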
